A study of Mus musculus with 62 samples.

Results

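The lysosome and autophagy genes described here are 35 mouse genes that encode the degrading enzymes, membrane proteins, proton pump subunits and lipid handling proteins of the lysosome, the transcription factors Tfeb and Tfe3, and the autophagy proteins Sqstm1, Gabarapl1 and Map1lc3b. They were taken as the entries whose gene symbol equals a name on a list of members, which was drawn up with earlier results of these data known. Matching by symbol used no measured value, and all 35 were found among the 34126 genes present in every table and passed the filter on low values in every comparison. Their genes lie on 17 chromosomes. Messenger RNA had been sequenced in 62 samples that fall into 15 groups, from bladder tissue of mice labelled wild type and from BBN963, a line of cultured mouse cells labelled as basal bladder cancer and C57bl/6 wild type. The basal tumours arose after exposure of mice to BBN, a nitrosamine.

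The combination tested throughout was rosiglitazone, which activates the nuclear receptor PPARG, together with the MEK inhibitor trametinib. Tumour tissue was taken after 5 days of the combination (4 samples) or of vehicle (3 samples), and after 1 month of the combination (4 samples) or of vehicle (3 samples). The vehicle was made of hydroxypropyl methylcellulose, Tween 80 and a little DMSO in water, and 3 bladders from animals without BBN completed the tissue set. In a first cell experiment BBN963 cells received rosiglitazone, trametinib, the combination or DMSO, the solvent, for 72 h, with 5 samples in each group. In a second cell experiment cells were taken at 24 h and 72 h. The combination had 4 samples at each time, ATRA, which is all-trans retinoic acid, had 6 at 24 h and 5 at 72 h, and DMSO had 3 at each time. Doses are not given in the sources used here. BBN963 is 1 cell line, and the labels do not say whether samples of a group came from separate animals or cultures, so p-values cover only the spread among the libraries at hand.

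The lysosome is the acidic compartment in which cells break down proteins, glycans and lipids. Cathepsins cut proteins, glycosidases and sulfatases take sugars off glycans and glycolipids, and the V-ATPase pumps the protons that keep the compartment acidic. Autophagy delivers cytoplasm to it: Map1lc3b and Gabarapl1 coat the forming autophagosome, and Sqstm1 links cargo to that coat. Many of these genes carry a short palindromic E-box near their start, known as the CLEAR element, which TFEB and TFE3 bind. Signalling through mTORC1 and, in several cell types, through ERK keeps TFEB out of the nucleus by phosphorylation, so that the activity of these factors is only loosely tied to their messenger level. Macrophages are rich in lysosomes, and tumour tissue holds them beside the cancer cells.

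Windows of 300 bases, 250 before and 50 after each annotated start, were read from RefSeq sequence of GRCm38.p6 and were found for 29 of the 35 members, 35 windows in all. The palindrome was searched in 3 spellings, each of which is its own reverse complement and so reads alike on both strands: CACGTG, TCACGTGA and GTCACGTGAC, where each longer one contains the shorter. CACGTG was present in 12 of the 29 members (41.4%), against 8.09% of 27025 genes with a window and 11.6% of 9754 genes that were also tested in both cell experiments. TCACGTGA was present in 7 members (24.1%), against 1.12% and 2.18% of those genes. GTCACGTGAC was present in Cln3 alone (3.45% of the members, against 0.37% and 0.779%). In other lists, described below, CACGTG was in 5% of 20 membrane proteins, 14.3% of 14 V-ATPase subunits and 16.7% of 24 hydrolases. It was in 17.4% of 23 core autophagy genes, 20% of 10 autophagy receptors and 26.1% of 23 nutrient sensing genes. Of 8 mannose 6-phosphate sorting genes 62.5% held it, and of 5 other regulators 0%. The share with TCACGTGA ranged from 0%, as in the hydrolases, to 37.5% in the sorting genes. A match describes these letters and is not a measured binding site. Of the 6 members with 2 or more CACGTG matches in 1 window, 5 are printed here: Lamp1, Mcoln1, Ctsa and Cln3, which rose in cells of the first experiment, and Gla, which was not called there. Lipa is printed because it has no match and was among the members with the largest rises. Capitals mark CACGTG with as many paired palindromic letters on each side as the sequence holds, up to 10 letters in all. The windows are Lamp1 at chr8:13158911-13159210 on the + strand, Mcoln1 at chr8:3500269-3500568 on the + strand, Ctsa at chr2:164833523-164833822 on the + strand, Cln3 at chr7:126583187-126583486 on the - strand, Gla at chrX:134600956-134601255 on the - strand and Lipa at chr19:34527425-34527724 on the - strand, each printed 5′ to 3′ along its gene.
Lamp1: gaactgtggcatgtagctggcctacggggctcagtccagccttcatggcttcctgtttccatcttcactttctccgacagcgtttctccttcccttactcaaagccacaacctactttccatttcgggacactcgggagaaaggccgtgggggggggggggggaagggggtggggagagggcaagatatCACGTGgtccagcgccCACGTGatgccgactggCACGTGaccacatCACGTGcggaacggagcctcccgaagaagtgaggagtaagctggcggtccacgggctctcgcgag
Mcoln1: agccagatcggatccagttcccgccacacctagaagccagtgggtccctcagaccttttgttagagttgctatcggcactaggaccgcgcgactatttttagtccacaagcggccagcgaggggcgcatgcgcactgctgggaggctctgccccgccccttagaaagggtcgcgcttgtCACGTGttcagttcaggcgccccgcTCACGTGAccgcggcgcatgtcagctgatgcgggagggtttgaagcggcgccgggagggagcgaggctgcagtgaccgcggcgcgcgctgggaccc
Ctsa: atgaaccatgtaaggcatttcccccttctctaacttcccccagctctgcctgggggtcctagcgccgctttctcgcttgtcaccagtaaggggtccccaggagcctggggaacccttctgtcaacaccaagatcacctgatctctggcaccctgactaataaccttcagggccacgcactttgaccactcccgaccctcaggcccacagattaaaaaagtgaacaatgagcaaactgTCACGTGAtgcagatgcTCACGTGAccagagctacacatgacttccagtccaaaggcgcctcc
Cln3: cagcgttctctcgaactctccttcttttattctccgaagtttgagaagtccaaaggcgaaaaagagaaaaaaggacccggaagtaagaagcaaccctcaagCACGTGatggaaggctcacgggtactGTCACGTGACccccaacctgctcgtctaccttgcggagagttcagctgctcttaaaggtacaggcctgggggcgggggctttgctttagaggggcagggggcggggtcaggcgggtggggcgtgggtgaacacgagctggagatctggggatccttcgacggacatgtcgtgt
Gla: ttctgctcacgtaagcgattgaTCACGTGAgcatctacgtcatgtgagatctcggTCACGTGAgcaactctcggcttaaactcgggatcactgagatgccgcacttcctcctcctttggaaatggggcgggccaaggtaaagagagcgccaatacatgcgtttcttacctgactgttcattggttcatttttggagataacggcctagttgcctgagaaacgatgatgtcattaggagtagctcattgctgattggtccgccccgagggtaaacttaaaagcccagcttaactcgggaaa
Lipa: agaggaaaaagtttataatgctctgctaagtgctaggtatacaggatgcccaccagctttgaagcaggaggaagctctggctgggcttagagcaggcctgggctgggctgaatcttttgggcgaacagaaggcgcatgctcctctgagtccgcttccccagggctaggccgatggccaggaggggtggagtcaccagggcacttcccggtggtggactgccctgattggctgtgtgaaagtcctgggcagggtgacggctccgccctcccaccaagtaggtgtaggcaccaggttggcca
The 4 matches in the Lamp1 window lie between -61 and -15 relative to the start, and the matches of Ctsa lie at -12 and 6, on both sides of it. Cln3 has its matches at -149 and -121, Mcoln1 at -71 and -45, and Gla at -227 and -194.

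All values are read counts normalised by the authors with DESeq2, and levels are compared within a table only. Estimated depth was 17.8 to 76.8 M (mega) reads in tissue, 29.8 to 48.4 M in the first cell experiment and 4.64 to 29.5 M in the second. Dusp6, a phosphatase gene that ERK signalling turns on, was lower under the combination in the first cell experiment (log2 fold change -5.86), in the second at 72 h (-6.74) and in tumours at 5 days (-2.08), while at 1 month its log2 fold change of -1.17 (adjusted p = 0.0835) was not called. Spry2, Fabp4 and Cyp26a1 were drug checks as well. Spry2 in tumours at 5 days had 66.8, 127, 116 and 170 under the combination, against 141, 66.4 and 154 under vehicle. Fabp4 there had 2330, 839, 587 and 788, against 763, 106 and 793. Cyp26a1, a retinoic acid check, had 2.84, 4.44, 23.5 and 186 there, against 2.77, 93.9 and 45.1. Each of these genes had overlapping groups, and their values in the other comparisons, those with ATRA included, are not given here. Angptl4, a PPARG target, had a log2 fold change in the first cell experiment of 2.86 under the combination, of 1.83 under trametinib alone and of 0.45 (adjusted p = 0.271) under rosiglitazone alone. Under the combination it was -0.33 (adjusted p = 0.586) in the second at 72 h. Cell libraries held epithelial markers such as Cdh1 and Krt8. The basal markers Krt5 and Trp63 reached at most 6.66 and 11.4 in any library of the first experiment's combination table and 2.03 and 9.24 in the second experiment. Of the 8 epithelial markers looked for, which include the basal keratin Krt14, 1 or 2 were under 10 in each library of that table. In the second experiment only Krt5 and Trp63 were, so Krt14 was at 10 or more there. Tissue libraries, although labelled as urothelial cancer cells, held every macrophage marker looked for. Vehicle replicate 2 of the 1-month tumours stood apart, with a summed value of 399163 for 8 neutrophil markers, against 12174 and 13374 in the other vehicle tumours of that time. ATRA replicate 6 at 24 h and ATRA replicate 1 at 72 h also stood apart, with Angptl4 at 998 and 906, against 141 to 152 and 244 to 300.0 in the other ATRA libraries of those times. Counts of called members in comparisons of the groups that hold these 3 libraries are given with and without them. Counts of markers and of other gene lists are given with them only. Fits of other groups in the same table took their spread from these libraries too. The title of ATRA replicate 1 at 72 h carries a number that falls among those of the 24 h libraries. Gaa there was 772, against 666 to 772 in ATRA libraries at 24 h and 483 to 518 in the others at 72 h. Cln3 there was 259, above the 24 h ATRA range of 176 to 227 and within the 72 h range of 213 to 264. Whether the time label of this library is right was not tested.

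**Figure D1:**
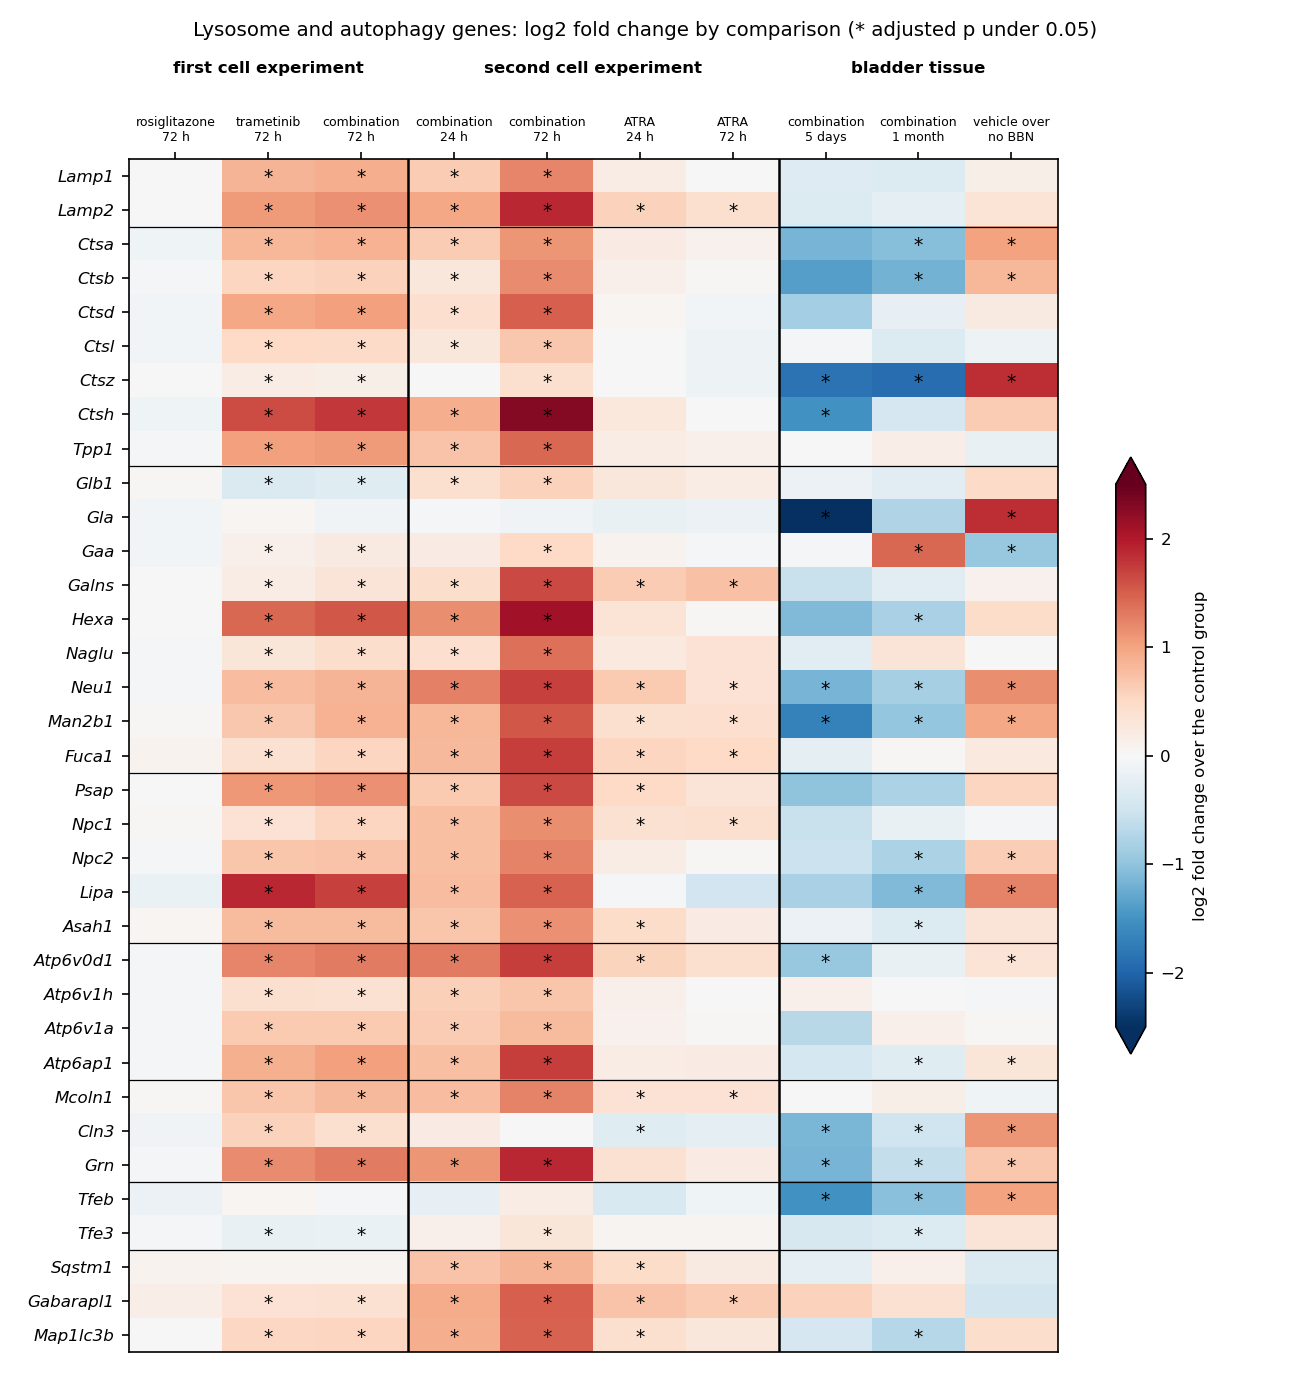
Log2 fold changes of the 35 members (down the page, by role) in the comparisons with a control group (across), red for higher and blue for lower in the treated group or, in the last comparison named, in vehicle tumours. The cell columns for trametinib and the combination are nearly all red, the rosiglitazone column is near 0, and the tumour columns for the combination are mostly blue.

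In the first cell experiment the members rose almost together under trametinib, with or without rosiglitazone, and rosiglitazone alone left none of them past the test. Under trametinib 30 of 35 members were called higher and 2 lower, where 71.1% of all genes tested were called in either direction, 35.8% higher and 35.3% lower. Under the combination 30 were again called higher and 2 lower, where 72.5% of all genes were called, 36.3% higher and 36.2% lower. The median log2 fold change of the members was 0.66 under trametinib and 0.66 under the combination, and the median over all genes tested lay at 0.0086 and 0.0080. Calls here and below are at an adjusted p under 0.05 from limma-trend on log2(value + 1), adjusted by Benjamini and Hochberg over all genes tested. Both treatments share the DMSO libraries, which were scaled anew in each table.

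Among the lipid handling genes, Lipa, the acid lipase that frees cholesterol and fatty acids in the lysosome (chr19:34492318-34527474, - strand, GRCm38), had 11439.9, 11785, 12001, 11554 and 11318 normalised reads in trametinib cells, against 3023, 3253, 3419, 2942 and 3014 in DMSO cells of that table. In the combination table Lipa had 9510.2, 9495, 9382, 9294 and 9133 in combination cells, against 2781, 2991, 3144, 2709.8 and 2777 in DMSO cells. Every treated library lay above every DMSO library, and the log2 fold change was 1.89 (SE 0.044, adjusted p = 1.82e-13) under trametinib and 1.70 (SE 0.043, adjusted p = 6.02e-13) under the combination. Psap encodes the precursor of the saposins that present glycolipids to their enzymes, and it had 38368, 39126, 38900.4, 38527 and 38534 in combination cells, against 16403, 17378, 17259.5, 19261 and 17431 in DMSO cells. The groups did not overlap, and the log2 fold change was 1.14 (SE 0.039, adjusted p = 1.12e-11). All 5 lipid handling members rose under both treatments, the others being Npc1 and Npc2, which export cholesterol, at 0.53 and 0.72 under the combination, and the acid ceramidase Asah1 at 0.79.

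Among the proteases, Ctsh, a cysteine cathepsin (chr9:90054152-90076089, + strand), had 17230.0, 16707, 16883, 17069 and 17592 in combination cells, against 4939, 5188, 5449, 5062 and 4532 in DMSO cells. In trametinib cells Ctsh had 16666, 17329.9, 17649, 17067 and 16139.8, against 5364, 5637, 5919, 5489 and 4913 in DMSO cells. The groups were far apart in both tables, with a log2 fold change of 1.77 (SE 0.045, adjusted p = 6.37e-13) under the combination and 1.64 (SE 0.048, adjusted p = 1.34e-12) under trametinib. Ctsd, the main aspartic protease of the lysosome, had 38780.4, 40191, 40181, 40170.4 and 39688 in combination cells, against 18566, 19332, 18898, 21602 and 18892 in DMSO cells, without overlap, and a log2 fold change of 1.03 (SE 0.041, adjusted p = 4.26e-11). All 7 protease members were called higher under both treatments, and they ranged from Ctsz, at 0.16 (SE 0.059) under the combination, up to Ctsh. The combination and DMSO libraries overlapped for Ctsz, and its call under the combination was lost without DMSO replicate 1, 2 or 3 or combination replicate 4 or 5.

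Among the glycosidases, Hexa, the alpha subunit of beta-hexosaminidase (chr9:59539540-59565109, + strand), had 6531, 6562, 6448, 6229.6 and 6622 in combination cells, against 2101, 2124, 2131, 2467 and 2208 in DMSO cells. The groups did not overlap, and the log2 fold change was 1.56 (SE 0.046, adjusted p = 2.62e-12) and 1.44 under trametinib. Of the 9 members of this class, 7 rose and Glb1, the beta-galactosidase, fell under both treatments. Glb1 had 1873, 1741, 1852, 1863 and 1908 in combination cells, against 2218, 2258, 2277, 2378 and 2274 in DMSO cells, with a log2 fold change of -0.30 (SE 0.039, adjusted p = 7.29e-06). Gla, the alpha-galactosidase, was not called, at -0.085 (SE 0.062, adjusted p = 0.236) under the combination and 0.049 under trametinib. The sialidase Neu1 and the mannosidase Man2b1 rose by 0.86 and 0.87 on the log2 scale under the combination.

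The membrane glycoproteins that line the lysosome rose to a like extent. Lamp2 had 17972, 17347, 17446, 17384 and 17569 in combination cells, against 8023, 8156, 8373, 7421 and 7985 in DMSO cells. Lamp1 (chr8:13159161-13175338, + strand) had 58383, 58994, 57789, 57506 and 58154 in combination cells, against 30804, 30115, 31049.9, 32177 and 30866 in DMSO cells. Neither gene had overlapping groups, and the log2 fold changes were 1.14 (SE 0.036, adjusted p = 4.62e-12) for Lamp2 and 0.91 (SE 0.029, adjusted p = 5.16e-12) for Lamp1. The 4 V-ATPase members rose as well, by 1.31 for the membrane sector subunit Atp6v0d1, 1.03 for the accessory protein Atp6ap1, 0.66 for the catalytic subunit Atp6v1a and 0.38 for the regulatory subunit Atp6v1h under the combination. Mcoln1, the calcium channel of the lysosome, rose by 0.81, and Grn, the progranulin gene (chr11:102430315-102437048, + strand), by 1.29.

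The messengers of the transcription factor members Tfe3 and Tfeb did not rise with the enzymes. Tfe3 had 2484, 2241, 2267, 2129 and 2145 in combination cells, against 2430.3, 2504, 2489.5, 2593 and 2651 in DMSO cells. These groups overlapped in part, and the log2 fold change was -0.17 (SE 0.047, adjusted p = 0.00514), with -0.19 (SE 0.044, adjusted p = 0.00158) under trametinib. Tfeb (chr17:47737030-47792419, + strand) had 233, 289.7, 235, 247 and 257 in combination cells, against 253, 229.6, 242, 307 and 259 in DMSO cells, and was not called (-0.031 (SE 0.092, adjusted p = 0.775)). Of the autophagy members, Map1lc3b and Gabarapl1 rose by 0.53 and 0.37, whereas Sqstm1 had a log2 fold change of 0.06 (SE 0.033, adjusted p = 0.122) and was not called.

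**Figure D2:**
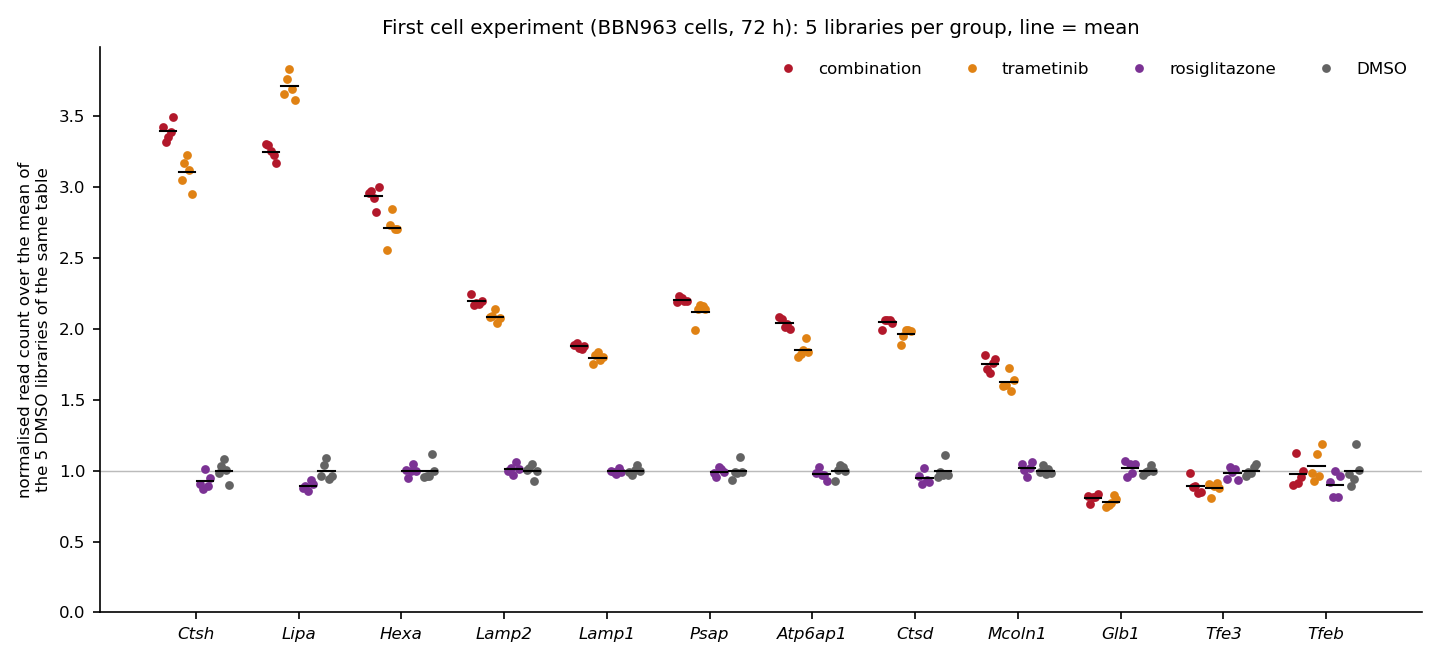
Values of 12 members in each library of the first cell experiment, as a ratio to the mean of the DMSO libraries of the same table, with a point for each library. Trametinib and combination libraries of Lipa, Ctsh and Hexa sit well above 1, those of Glb1 below 1, and rosiglitazone libraries sit around 1.

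Rosiglitazone alone gave no call among the members or among any of the 14218 genes tested with limma-trend (0% of all genes), and without DMSO replicate 4 it gave 71 genes, none of them a member. At an unadjusted p under 0.05 there were 4 members, Lipa (-0.16), Ctsa (-0.11), Sqstm1 (0.087) and Gabarapl1 (0.16). The share of all genes at that level was not counted, so this number cannot be set against it. Lipa had 2634, 2687, 2576, 2796 and 2715 in rosiglitazone cells, against 2909, 3138, 3299, 2776 and 2901 in DMSO cells, and the groups overlapped.

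Adding rosiglitazone to trametinib changed 5 members, where 7.74% of all genes were called, 3.39% higher and 4.35% lower. Man2b1 (log2 difference 0.20 (SE 0.033, adjusted p = 0.000502)), Npc1 (0.17 (SE 0.047, adjusted p = 0.0239)) and Atp6ap1 (0.14 (SE 0.033, adjusted p = 0.00829)) were higher under the combination than under trametinib. Lipa (-0.19 (SE 0.037, adjusted p = 0.00208)) and Cln3 (-0.18 (SE 0.045, adjusted p = 0.0162)), a membrane protein lost in a childhood storage disease, were lower. The interaction, the excess over the sum of both single effects, was called for Ctsh (0.24 (SE 0.061, adjusted p = 0.0427)) and Atp6ap1 (0.18 (SE 0.046, adjusted p = 0.0439)), where 2.06% of all genes were called. Both calls are small beside the trametinib effect on the same genes, and the number of interaction calls ranged from 0 to 4 as single libraries were left out. Without combination replicate 3 the combination differed from trametinib in 3 members.

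In the second cell experiment the combination raised 29 of 35 members at 24 h and 32 at 72 h, and lowered none at either time. Of all genes tested 54.9% were called at 24 h (27.7% higher, 27.2% lower) and 69.4% at 72 h (34.4% higher, 35.1% lower). The median log2 fold change of the members was 0.69 at 24 h and 1.25 at 72 h, while that of all genes was 0.0031 and -0.018. The members that were not called at 72 h were Gla, Cln3 and Tfeb.

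At 24 h the rises with the lowest adjusted p were in enzymes and pump subunits. Neu1 had 1138, 1018, 1104 and 1005 in combination cells, against 463, 459 and 411 in DMSO cells. Atp6v0d1 had 1509, 1373, 1362 and 1463 in combination cells, against 592, 561 and 580.5 in DMSO cells. Both genes had groups without overlap, and the log2 fold changes were 1.26 (SE 0.13, adjusted p = 4.75e-08) for Neu1 and 1.30 (SE 0.15, adjusted p = 2.61e-07) for Atp6v0d1. Atp6v1a, Asah1, Man2b1 and Mcoln1 rose by 0.64, 0.69, 0.84 and 0.76 on the log2 scale. Sqstm1 had 3765, 3214, 3319 and 3278 in combination cells, against 2194, 1963 and 2056 in DMSO cells, and rose by 0.71 (SE 0.13, adjusted p = 4.33e-05). Ctsz was not called at this time, with 459, 354, 401 and 357 in combination cells, against 406, 381 and 384 in DMSO cells, and a log2 fold change of 0.0017 (SE 0.10).

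At 72 h Ctsh had 6684, 6013, 5719 and 5765 in combination cells, against 1313, 1306 and 1066 in DMSO cells. Ctsd had 10458, 9844, 9985 and 10808 in combination cells, against 3825, 3896 and 3293 in DMSO cells. Both were separated from DMSO by a wide gap, with log2 fold changes of 2.30 (SE 0.12, adjusted p = 4.55e-14) and 1.49 (SE 0.099, adjusted p = 2.66e-12). Asah1 had 5152, 4515, 4776 and 4963 in combination cells, against 2246, 2173 and 2178 in DMSO cells. Lamp2 had 6227, 6076, 6413 and 6993 in combination cells, against 1745, 1716 and 1764 in DMSO cells. Atp6ap1 had 4762, 4884, 4629.6 and 5360.0 in combination cells, against 1521, 1574 and 1367 in DMSO cells. These 3 genes rose by 1.14 (SE 0.078), 1.88 (SE 0.13) and 1.72 (SE 0.12), again without overlap between groups, and Man2b1 rose by 1.55 (SE 0.11).

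The structural proteins and the glycosidases had the highest medians at 72 h, 1.55 in each class, followed by the autophagy members with 1.48. Within the autophagy class Map1lc3b had 3160.3, 3121, 3287 and 3311 in combination cells, against 1198, 1203 and 1063 in DMSO cells. Gabarapl1 had 557, 572, 501 and 523 in combination cells, against 213, 199.9 and 161 in DMSO cells. The log2 fold changes were 1.48 (SE 0.14, adjusted p = 1.22e-09) and 1.49 (SE 0.14, adjusted p = 5.32e-10), and neither gene had overlapping groups. Sqstm1 rose by 0.85 (SE 0.13, adjusted p = 1.61e-06). Tfe3 had 749.6, 735, 786 and 766 in combination cells, against 612, 629.6 and 597 in DMSO cells, a rise of 0.31 (SE 0.077, adjusted p = 0.000956), and Tfeb had 76.8, 76.9, 53.3 and 82, against 68.2, 60.7 and 59.9, and was not called (0.18 (SE 0.15, adjusted p = 0.309)).

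The effect grew with time in 22 members and shrank in none by the test of the difference of effects, where 24.6% of all genes were called (11.9% higher, 12.7% lower). Of these 22 calls 16 held as each of the 14 libraries was left out in turn, and those of Ctsa, Ctsl, Ctsz, Npc2, Gabarapl1 and Map1lc3b were lost in 2 to 12 of the 14 cases. Ctsh had the largest gain, a difference of 1.39 (SE 0.17, adjusted p = 2.66e-06) between the log2 fold changes at 72 h and 24 h, followed by Galns, the sulfatase of keratan sulfate, at 1.21 (SE 0.18, adjusted p = 3.88e-05). Galns had 247, 215, 235 and 221 in combination cells at 24 h, against 209, 141 and 160.2 in DMSO cells at 24 h. At 72 h Galns had 345, 342, 403 and 366 in combination cells, against 105, 114 and 125 in DMSO cells. The DMSO libraries were themselves lower at 72 h for this gene, with a log2 fold change of -0.55 (SE 0.14, adjusted p = 0.0104) against 24 h. Between the DMSO times 5 members were called, where 13.6% of all genes were (5.57% higher, 8.01% lower): Ctsh (0.55) and Ctsl (0.42) higher, Galns, Tfeb (-0.54) and Naglu (-0.57), a glucosaminidase of heparan sulfate, lower at 72 h. These DMSO calls numbered 2 or 3 when DMSO replicate 1 or 3 at 24 h or replicate 1 or 2 at 72 h was left out, and 2 higher and 1 lower after quantile normalisation. The fit of those 2 groups alone gave 4 higher and 8 lower.

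**Figure D3:**
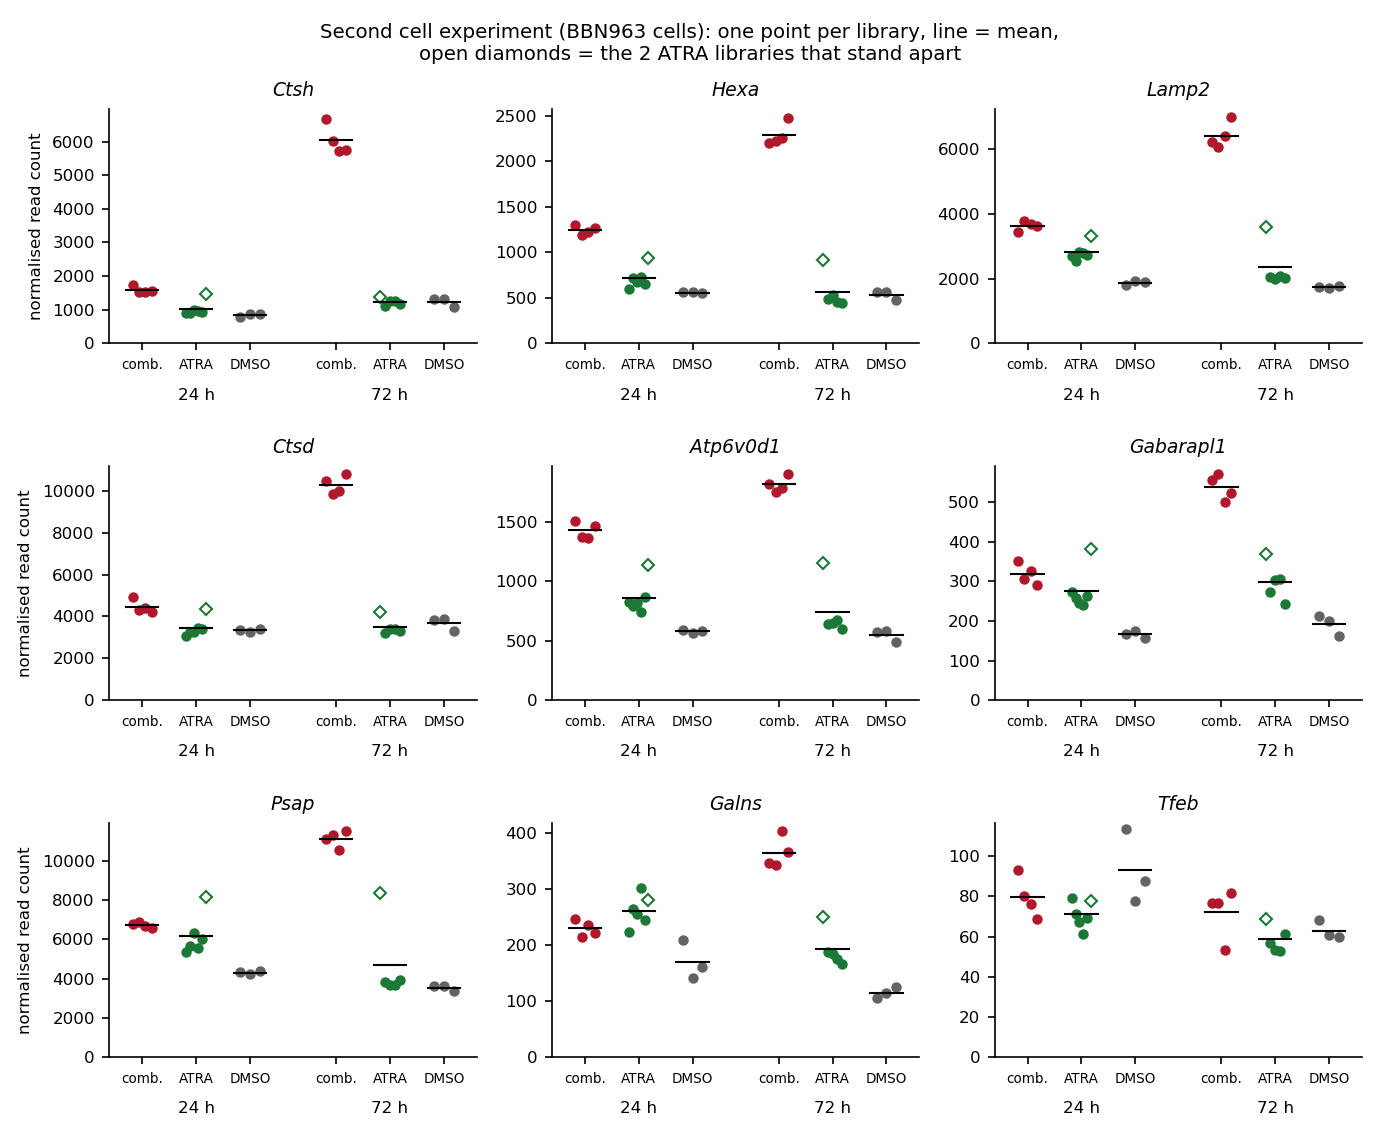
Normalised read counts of 9 members in each library of the second cell experiment, by treatment and time, on linear axes that start at 0, with a line at each mean. Open diamonds are the ATRA libraries that stood apart, and combination libraries at 72 h lie above all DMSO libraries for the enzymes drawn.

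Set side by side at 72 h, the cell experiments shared most calls and differed in size. Of the 30 members called higher in the first experiment 29 were also called higher in the second, which is 29 of the 32 called there, and 31 of 35 members had the same sign. Glb1 and Tfe3 were called lower in the first experiment and higher in the second. Shared calls and signs were not counted over all genes, so how far this sharing is particular to the members was not tested. The difference of effects, second minus first, was called higher in 29 members and lower in 2, where 54.9% of all genes were called (27.3% higher, 27.7% lower). It was highest for Galns (1.33 (SE 0.10)), Fuca1, the fucosidase (1.21 (SE 0.095)), and Gabarapl1 (1.12 (SE 0.10)), and it was below 0 for Lipa (-0.23 (SE 0.069)) and Cln3 (-0.41 (SE 0.098)). The SE of a difference takes 1 spread per gene over the libraries of both experiments, so it can be smaller than the SE within the second alone. The experiments also differed in depth and in the authors' normalisation, whose part in these differences was not tested.

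ATRA, which activates retinoic acid receptors, moved fewer members. Rarb, a retinoic acid target, was higher at 24 h (1.46) and at 72 h (2.35). At 24 h 13 members were called higher and 1 lower, where 25.4% of all genes were called (12.5% higher, 12.9% lower), and the members' median was 0.24. At 72 h 8 were called higher and none lower, where 16.7% of all genes were called (9.58% higher, 7.15% lower), and the median was 0.13. Replicate 6 at 24 h was the highest ATRA library by Dixon's criterion for 20 members, and replicate 1 at 72 h for 24. Without both libraries 18 members were higher and 3 lower at 24 h with a median of 0.15, and 9 were higher and 1 lower at 72 h with a median of 0.0057.

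Gabarapl1 had 239 at the lowest, 260.0 at the median and 381 at the highest in ATRA cells at 24 h, against 168, 174 and 157 in DMSO cells. At 72 h Gabarapl1 had 369, 273, 304, 306 and 242 in ATRA cells, against 213, 199.9 and 161 in DMSO cells. ATRA and DMSO libraries did not overlap at either time, and the log2 fold change was 0.71 (SE 0.13, adjusted p = 0.000223) at 24 h and 0.64 (SE 0.13, adjusted p = 0.00125) at 72 h, or 0.62 and 0.56 without the libraries that stood apart. Galns had 249.9, 187, 184, 175 and 166 in ATRA cells at 72 h, against 105, 114 and 125 in DMSO cells, and rose by 0.73 (SE 0.12, adjusted p = 0.000171), or by 0.64 without them. At 24 h Asah1 had 2582 at the lowest, 2618 at the median and 2919 at the highest in ATRA cells, against 1820.2, 2099 and 1873 in DMSO cells, with a log2 fold change of 0.46 (SE 0.072, adjusted p = 5.42e-05), or 0.43 without them. Neu1, Lamp2 and Fuca1 rose at both times, by 0.65, 0.58 and 0.54 at 24 h and by 0.37, 0.39 and 0.49 at 72 h. Without the libraries that stood apart these values were 0.56, 0.54 and 0.46 at 24 h and 0.25, 0.23 and 0.36 at 72 h, and without replicate 1 at 72 h alone Neu1 was not called there (0.25 (adjusted p = 0.102)). Cln3 was the member that fell at 24 h, with 176 at the lowest, 207 at the median and 227 at the highest in ATRA cells, against 267, 244 and 244 in DMSO cells, and a log2 fold change of -0.31 (SE 0.095, adjusted p = 0.0204), or -0.34 without them. Of the 8 calls at 72 h those of Galns, Man2b1, Mcoln1 and Gabarapl1 held as each library was left out in turn, and the number of calls was 5 without DMSO replicate 1 or 2 and 4 without DMSO replicate 3.

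Whether Lipa was called under ATRA at 72 h depended on 1 library. Lipa had 577, 268, 259, 303 and 246 in ATRA cells at 72 h in replicates 1 to 5, against 454, 421 and 442 in DMSO cells. Replicate 1 lay above the DMSO libraries and the other ATRA libraries below them. The log2 fold change was -0.49 (SE 0.17, adjusted p = 0.0557) with replicate 1, -0.71 (adjusted p = 2.47e-06) without it and -0.71 (adjusted p = 2.69e-08) without both libraries that stood apart. Under the combination at the same time Lipa had 1183, 1218, 1192 and 1294.

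Compared with ATRA at 72 h, the combination had higher levels of 33 members, where 67.4% of all genes were called (33.4% higher, 34% lower), and the median difference was 1.01 on the log2 scale. Ctsh differed most by adjusted p, with 6684, 6013, 5719 and 5765 in combination cells, against 1377, 1114, 1255, 1250.0 and 1173 in ATRA cells, a log2 difference of 2.29 (SE 0.11, adjusted p = 3.21e-15). Ctsd, Lamp1, Atp6ap1 and Hexa differed by 1.56, 1.22, 1.51 and 2.07. Without the 2 libraries that stood apart 34 members were higher, Tfeb being added (0.34 (adjusted p = 0.028)).

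In tumours after 1 month of treatment the members moved the other way: 15 of 35 were called lower under the combination than under vehicle and 1, Gaa, higher. Of all genes tested 23.8% were called, 13.7% lower and 10.1% higher, and the median log2 fold change was -0.35 for the members and 0.043 for all genes. In bulk tissue, fewer cells of a type and less RNA per cell cannot be told apart. After quantile normalisation 7 members were lower and 2 higher, with 2102 of all genes lower and 2695 higher against 2575 and 1889 before it, and 8 of the 16 calls (Ctsa, Ctsb, Ctsz, Gaa, Neu1, Lipa, Cln3 and Tfeb) held as each library was left out in turn. There were 9 calls without vehicle replicate 1 or combination replicate 3 and 10 without combination replicate 2.

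Ctsz, the cathepsin with carboxypeptidase activity (chr2:174427493-174439039, - strand), had 9692, 8514, 6228 and 8559 in combination tumours, against 41859.8, 20991 and 31658 in vehicle tumours. Ctsb, another cysteine cathepsin, had 56609, 51151, 46153 and 57666 in combination tumours, against 145507, 88775 and 129818 in vehicle tumours. Ctsa, the protective protein that holds Neu1 and Glb1 in a complex, had 15398, 16496, 13954 and 17526 in combination tumours, against 37541, 26194 and 36221 in vehicle tumours. All 3 were lower in every combination tumour than in any vehicle tumour, and the log2 fold changes were -1.90 (SE 0.23, adjusted p = 0.000498) for Ctsz, -1.17 (SE 0.18, adjusted p = 0.00149) for Ctsb and -1.06 (SE 0.14, adjusted p = 0.000809) for Ctsa. Ctsd, Ctsl, Ctsh and Tpp1 were not called, at -0.20, -0.35, -0.42 and 0.16.

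Lipa had 4022, 4282, 3663 and 4591 in combination tumours, against 8953, 8821 and 8873 in vehicle tumours. Neu1 had 3231, 3525, 3466 and 2479 in combination tumours, against 4695, 6792 and 5399.8 in vehicle tumours. Tfeb had 1125, 887, 643 and 1092 in combination tumours, against 1948, 1983 and 1749.6 in vehicle tumours. The groups were apart for each, with log2 fold changes of -1.11 (SE 0.14, adjusted p = 0.000612), -0.82 (SE 0.18, adjusted p = 0.00856) and -1.05 (SE 0.24, adjusted p = 0.0126). The median by role was lowest for lipid handling (-0.78) and for the transcription factors (-0.70), where Tfe3 also fell (-0.35 (SE 0.11, adjusted p = 0.0417)).

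Gaa, the acid glucosidase that breaks down glycogen (chr11:119267887-119285454, + strand), had 12139, 10247, 13479 and 8332 in combination tumours, against 3870.0, 3750.1 and 4452 in vehicle tumours. It was higher in every combination tumour, with a log2 fold change of 1.44 (SE 0.18, adjusted p = 0.000583). The other called members, all lower, were Man2b1 (-0.96), Hexa (-0.81), Npc2 (-0.78), Map1lc3b (-0.72), Grn (-0.60), Cln3 (-0.50), Asah1 (-0.34) and Atp6ap1 (-0.31). Lamp1, Mcoln1, Sqstm1 and Gabarapl1 were not called, at -0.35, 0.15, 0.13 and 0.39. Without vehicle replicate 2, the library that stood apart, 15 were lower and 1 higher; Lamp1 (-0.50 (adjusted p = 0.00842)), Ctsh (-0.72 (adjusted p = 0.00294)) and Psap (-1.19 (adjusted p = 0.00423)) joined, and Man2b1 (-0.90 (adjusted p = 0.0533)), Asah1 (-0.31 (adjusted p = 0.0955)) and Tfe3 (-0.30 (adjusted p = 0.102)) were no longer called.

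Macrophage markers moved with these genes. The summed value of 12 macrophage markers was 15717, 14007, 11039 and 22609 in combination tumours, against 122432, 57328 and 127118 in vehicle tumours, and none of the 12 was at 0 in any tissue library. At 1 month 9 of the 12 were called lower under the combination, with a median log2 fold change of -3.16. Markers of T and NK cells (7 of 8 lower), mast cells (6 of 6 lower) and neutrophils (3 of 8 lower) fell too, and fibroblast markers gave no call of 5. Epithelial markers were called higher in 2 of 8 cases. In BBN963 cells of the first experiment the macrophage sums were 512 to 592 under the combination and 540 to 571 under DMSO. Of the 12 markers 6 to 9 were under 10 normalised reads, and the rest were at 10 or more. Adgre1 and C1qa were among the low ones, at most 1.21 and 1.96. In the second experiment at 72 h the sums were lower under the combination, 72.5 to 106.5, against 150.5 to 168.5 in DMSO cells. There 9 to 11 of the 12 markers were under 10. At 24 h the sums overlapped, at 61.9 to 78.7 under the combination and 67.6 to 81.8 under DMSO. The part of macrophages and the other cell types in the tumour results was not tested.

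**Figure D4:**
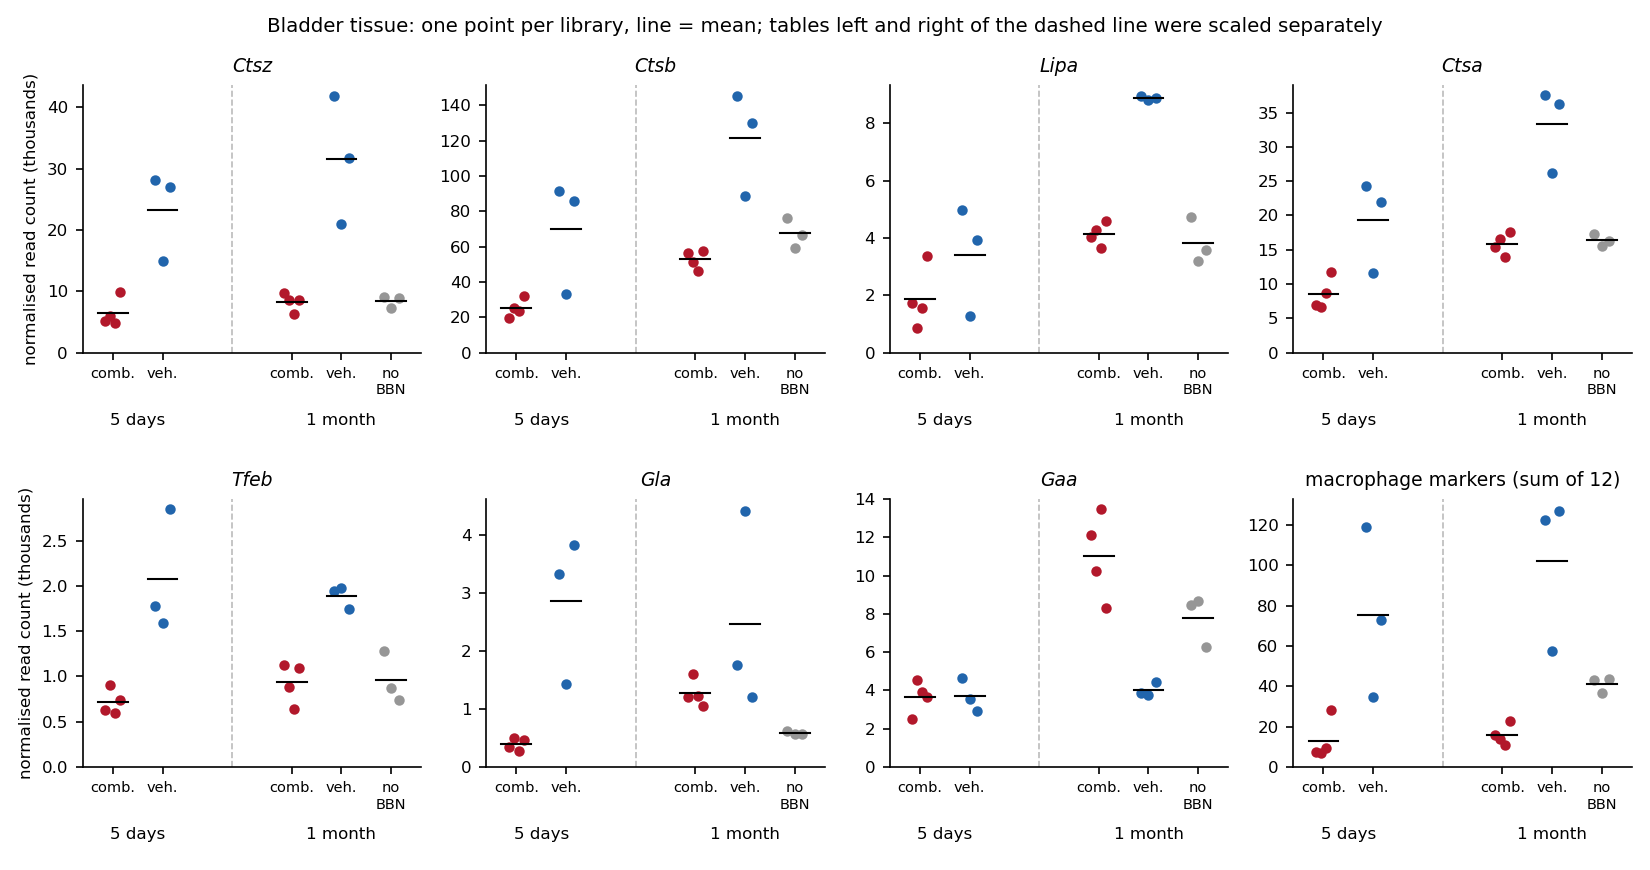
Normalised read counts in each tissue library on linear axes that start at 0, with a line at each mean, 5 days on the left and 1 month on the right, for Ctsz, Ctsb, Lipa, Ctsa, Tfeb, Gla, Gaa and the sum of 12 macrophage markers. Combination tumours lie below vehicle tumours for the macrophage sum at both times and for Ctsz at both times, and above them for Gaa at 1 month.

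After 5 days of the combination 9 members were called lower than under vehicle and none higher, where 6.17% of all genes were called (5.48% lower, 0.699% higher). The median log2 fold change was -0.55 for the members and 0.039 for all genes. After quantile normalisation 785 of all genes were lower and 249 higher, against 925 and 118 before it. Combination libraries of this set were shallower, at 17.8 to 23.1 M reads, against 33.2 to 71.9 M in vehicle libraries. Ctsh had 5725, 4494, 4301 and 5543 in combination tumours, against 13729, 16677 and 12746 in vehicle tumours. Gla (chrX:134588149-134601125, - strand) had 335, 491, 272 and 458 in combination tumours, against 3325, 1418 and 3822 in vehicle tumours. Neither gene had overlapping groups, with log2 fold changes of -1.52 (SE 0.16, adjusted p = 0.0034) for Ctsh and -2.79 (SE 0.38, adjusted p = 0.00736) for Gla. Neu1 had 1296, 1446, 1491 and 1538 in combination tumours, against 2866, 3378 and 3409 in vehicle tumours. Man2b1 had 4329, 6222, 5166 and 8188 in combination tumours, against 20784, 19501 and 16206 in vehicle tumours. The log2 fold change was -1.16 (SE 0.13, adjusted p = 0.0034) for Neu1 and -1.69 (SE 0.23, adjusted p = 0.00712) for Man2b1, both without overlap.

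The other calls at 5 days were Ctsz (-1.85), Tfeb (-1.51), Grn (-1.16), Cln3 (-1.14) and Atp6v0d1 (-0.96). Vehicle replicate 2 of this set was low for several members: Ctsb had 19405, 25531, 23309 and 32301 in combination tumours, against 91345, 33379 and 85581 in vehicle tumours, and was not called (-1.37 (SE 0.37, adjusted p = 0.08)). Without that vehicle library 12 members were called lower, among them Ctsb (-1.84 (adjusted p = 0.0101)), Ctsa (-1.48 (adjusted p = 0.025)), Ctsd (-1.13 (adjusted p = 0.0313)) and Psap (-1.44 (adjusted p = 0.0135)), and Grn was not called (-1.24 (adjusted p = 0.0606)). Of 12 macrophage markers 7 were called lower at 5 days (median -2.83), with sums of 7217, 6924, 9248 and 28309 in combination tumours, against 119271, 34795 and 72732 in vehicle tumours. Adgre1 had 9573 in combination replicate 4, above all vehicle tumours (6035 to 7556), and 359 to 897 in the other combination tumours. All 8 neutrophil markers were lower. Summed mast cell markers came to 342 to 1885 in combination tumours, against 4449 to 67572 in vehicle tumours, with 1 of 6 called lower, and summed endothelial markers to 1304 to 2838 in combination tumours, against 3459 to 4791 in vehicle tumours, with none of 4 called. Epithelial markers were called higher in 2 of 8 cases, and no T and NK cell, B and plasma cell, fibroblast, smooth muscle or umbrella cell marker was called. The part of these cells in the members' result was not tested.

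Ctsz, Neu1, Man2b1, Cln3, Grn and Tfeb were called lower at both times, which is 6 of the 15 lower at 1 month and 6 of the 9 lower at 5 days, and 29 of 35 members had the same sign. The same counts over all genes were not made. Among these 6, the calls of Neu1, Cln3 and Tfeb held at both times as each library was left out in turn. At 5 days the call of Ctsz was lost in 4 of 7 cases and that of Grn in 6 of 7, and at 1 month that of Man2b1 was lost in 6 of 7 and that of Grn in 3 of 7. After quantile normalisation 4 members, Ctsz, Neu1, Cln3 and Tfeb, were called lower at both times. The effect at 1 month minus that at 5 days was called for none of the 35 by limma-trend, where 0.0906% of all genes were called (0.0302% higher, 0.0604% lower). At an unadjusted p under 0.05, a level at which all genes were not counted, there were 9 members. The lowest p among them belonged to Atp6v0d1 (0.77 (SE 0.15, adjusted p = 0.0697)) and Gaa (1.47 (SE 0.31, adjusted p = 0.0825)). Without vehicle replicate 2 of the 1-month set Gla was called (2.57 (adjusted p = 0.0423)).

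Vehicle tumours at 1 month, against bladders without BBN, had 13 members called higher and 1 lower, where 26.4% of all genes were called (15% higher, 11.4% lower). The members' median log2 fold change was 0.34. Ctsz had 41859.8, 20991 and 31658 in vehicle tumours, against 9124, 7293 and 8973 in bladders without BBN. Cln3 had 5024, 4535 and 4838 in vehicle tumours, against 2599.8, 2045 and 2059 in bladders without BBN. Gla had 1757, 4413 and 1205 in vehicle tumours, against 619, 562 and 566 in bladders without BBN. Each was higher in all vehicle tumours, with log2 fold changes of 1.85 (SE 0.24, adjusted p = 0.000541), 1.11 (SE 0.13, adjusted p = 0.000247) and 1.85 (SE 0.39, adjusted p = 0.00642). Lipa, Neu1, Ctsa and Tfeb were also higher, by 1.23, 1.17, 1.01 and 1.01.

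Gaa was the member that was lower in vehicle tumours, with 3870.0, 3750.1 and 4452, against 8442, 8676 and 6247 in bladders without BBN, and a log2 fold change of -0.94 (SE 0.19, adjusted p = 0.00517). Of the macrophage markers 6 of 12 were called higher in vehicle tumours (median 1.23), of the neutrophil markers 8 of 8 and of the T and NK cell markers 7 of 8, and their part in the members' values was not tested. Of the 14 calls 8 held as each library was left out in turn. The count of members was 8 without either replicate 2 or replicate 3 of the bladders without BBN, and 15 higher and 2 lower without vehicle replicate 2. After quantile normalisation 8 members were higher and 2 lower, with 2386 of all genes higher and 2881 lower against 2816 and 2130 before it.

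Combination tumours at 1 month, against bladders without BBN, had 1 member called, where 4.01% of all genes were. Cln3 had 3449, 3620.1, 3454 and 3063 in combination tumours, against 2599.8, 2045 and 2059 in bladders without BBN, a log2 fold change of 0.61 (SE 0.12, adjusted p = 0.0202). This call was lost without combination replicate 2 or 3 or without replicate 2 or 3 of the bladders without BBN, and the fit of these groups alone called 2 members. The members' median was -0.022, and a p that misses the threshold does not show that these groups are alike: the log2 fold change was 1.10 (SE 0.37) for Gla and 0.50 (SE 0.18) for Gaa. These 3 tissue comparisons share groups, so their values are given side by side only. Macrophage markers were lower than in bladders without BBN in 4 of 12 cases (median -1.66).

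The combination had opposite calls in tumours and in cells for 13 members. Ctsa, Ctsb, Ctsz, Hexa, Neu1, Man2b1, Npc2, Lipa, Asah1, Atp6ap1, Cln3, Grn and Map1lc3b were called lower in tumours at 1 month and higher in cells of the first experiment, which is 13 of the 15 lower in tumours and 13 of the 30 higher in cells. Gaa was called higher in both and Tfe3 lower in both, and 12 of 35 members had the same sign. For Lipa the log2 fold change was -1.11 (SE 0.14) in tumours at 1 month and 1.70 (SE 0.043) in cells, and for Ctsz it was -1.90 (SE 0.23) and 0.16 (SE 0.059). With the second cell experiment at 72 h 13 members again had opposite calls, Tfe3 in place of Cln3, and 10 of 35 had the same sign. Many of these calls were not stable: with the first experiment 5 opposite calls (Ctsa, Ctsb, Neu1, Lipa and Cln3) held as each library was left out in turn, and with the second 5 (Ctsa, Ctsb, Ctsz, Neu1 and Lipa). After quantile normalisation the opposite calls numbered 6 with the first experiment and 5 with the second. Tumours and cells were normalised separately and treated for different times, and a difference of effects between them was not tested. Opposite calls and signs were not counted over all genes.

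**Figure D5:**
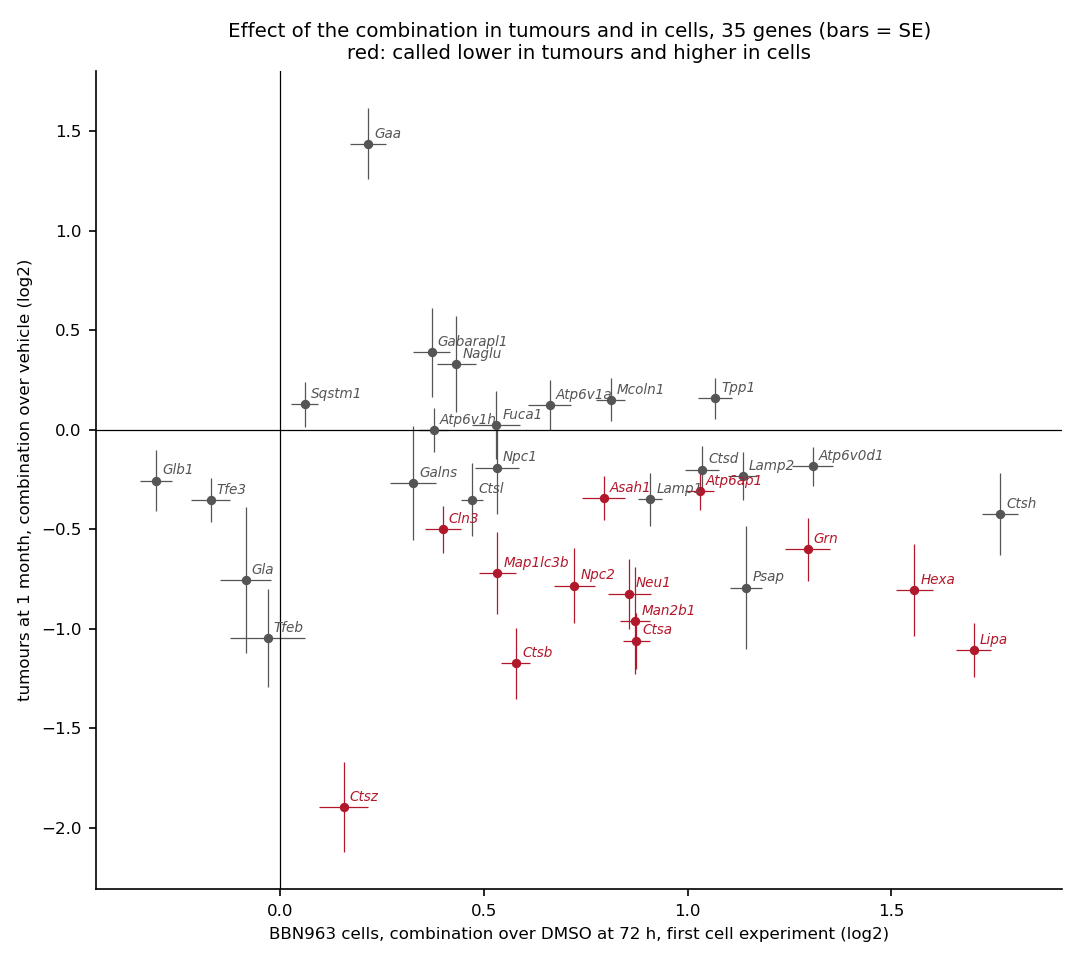
Log2 fold change of each member under the combination in tumours at 1 month against that in cells of the first experiment, with bars of 1 SE. Red points are the 13 members called lower in tumours and higher in cells, which lie in the quadrant of falls in tumours and rises in cells.

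Other genes of the same pathways were followed in 9 lists of 158 genes. Beside the counts that follow, 36.3% of all genes were called higher and 36.2% lower in the first cell experiment, and 34.4% higher and 35.1% lower in the second at 72 h. Of 30 other lysosomal hydrolases and cofactors tested in the first cell experiment 29 rose under the combination, among them the sphingomyelinase Smpd1 (1.29 (adjusted p = 8.39e-12)) and the phospholipase-like Plbd2 (1.30 (adjusted p = 1.64e-11)), and 28 of 29 rose in the second at 72 h with 1 lower. Of 20 other lysosomal membrane proteins 19 rose and 1 fell in the first experiment, led by the cystine exporter Ctns (2.57 (adjusted p = 3.44e-13)), and 18 rose in the second. Among other V-ATPase subunits 14 of 17 rose and 1 fell in the first experiment and 14 of 16 rose and 2 fell in the second, with Atp6v0c at 1.33 and Atp6v1c2 at -2.49. Sort1, a sorting receptor for lysosomal proteins, rose in both (1.45 and 2.25) as 8 of 10 genes of mannose 6-phosphate sorting did in each.

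Of 29 core autophagy genes 19 were higher and 3 lower in the first experiment, and 24 were higher and 2 lower in the second, led by the kinase Ulk2 (1.36 (adjusted p = 3.46e-11) and 2.62 (adjusted p = 3.75e-13)). Other autophagy receptors rose in 9 of 12 cases, with 2 lower, and in 11 of 12. Genes of nutrient sensing at the lysosome rose in 15 of 24 cases, with 1 lower, and in 18 with 2 lower, led in the first by the folliculin gene Flcn (0.79 (adjusted p = 3.12e-10)). Of 6 other regulators tested, 4 rose and 1 fell in the first and 3 rose in the second, with Mitf, a relative of Tfeb, at 1.37 (adjusted p = 6.08e-06) and 1.89 (adjusted p = 5.9e-06). All 3 cathepsin inhibitors rose in both, Cstb by 1.08 and 1.38.

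In tumours at 1 month, where 13.7% of all genes were lower and 10.1% higher, 8 of 32 other hydrolases were lower under the combination and none higher, with Ctss at -3.39 (adjusted p = 0.000251), Ctsc at -1.64 (adjusted p = 0.000724) and Acp5 at -1.22 (adjusted p = 0.000848). Of 18 other V-ATPase subunits 8 were lower, with Atp6v1b2 at -0.80, and 1, Atp6v0a1, was higher (0.59). Among membrane proteins 3 of 21 were lower and 3 higher, with Cd68 at -2.72 (adjusted p = 0.00015) and Laptm5 at -2.44 (adjusted p = 9.15e-05), both genes of macrophages and other white cells, and Ctss is likewise abundant in those cells. Core autophagy genes, with 5 lower and 4 higher of 29, and membrane proteins were near these shares of all genes, and among the autophagy genes Atg3 was at -0.94 and Wipi2 at 0.75. At 5 days, where 5.48% of all genes were lower, 7 of 32 hydrolases, 5 of 17 V-ATPase subunits and 2 of 29 core autophagy genes were lower and none of these was higher.

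Members with and without CACGTG in their promoter window were set side by side as a description. In the second cell experiment at 72 h the median log2 fold change was 0.94 in the 12 members with the letters and 1.49 in the 17 without them, and at 24 h it was 0.42 and 0.78. In the first experiment it was 0.57 and 0.86 under the combination and 0.62 and 0.69 under trametinib. In tumours the medians were -0.51 and -0.54 at 5 days and -0.23 and -0.72 at 1 month. Lamp1 and Mcoln1, whose windows are printed above, rose by 1.23 and 1.24 at 72 h, Gla with 2 longer matches had -0.08 (SE 0.08), and Lipa with none rose by 1.47.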

How the data were processed

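Per the labels' protocols, RNA was extracted with a miRNeasy kit, enriched for poly-A messengers and sequenced as TruSeq libraries. The authors deposited gene tables of signal values, which are read counts normalised with DESeq2, per the file headers. Per the submitters' processing notes, bcl2fastq 2.19, kallisto 0.44.0, DESeq2 (version not given), GRCm38.p6 and mm10 are named without role or order, and settings and annotation are not given in the sources used here. Tissue tables and those of the first cell experiment carry a separate factor for each gene and library. In the second cell experiment 1 size factor per library was used, and 100% of its values came back to whole reads within 0.1. Depth was estimated from these tables, and no interval is given for single values. In the table of rosiglitazone 1655 entries stood beside the wrong gene and were realigned through the deposited mean. No member was among them.

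Values were tested as log2(value + 1) with limma 3.58.1 in R 4.3.3, trend and robust, for genes whose value reached 10 in at least the smallest group's number of libraries, all groups of a table together, and called at an adjusted p under 0.05 over all genes tested. Each treatment of the first cell experiment was tested in its own table, and those tables were joined through the shared DMSO libraries for differences between treatments. Differences of effects between tables were tested as interactions, with 1 spread per gene taken over the libraries of both tables. The design had allowed for counts, and normalised values were found, so limma was the test. edgeR 4.0.16 on the recovered whole reads, quantile normalisation, pseudocounts of 0.5 and 4, no filter, only the compared groups and each library left out were alternatives, and leaving out both ATRA libraries that stand apart was added after seeing the data. The scripts were tested on simulated data.

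The members and lists were chosen with earlier results of these data known. By rule, values per library were for up to 6 called members with lowest adjusted p in the majority direction and 2 in the other. The rule added Tfeb, Tfe3, Mcoln1, Sqstm1, Gabarapl1, Map1lc3b, Lamp1, Ctsd and Ctsl where they carried a result. Up to 3 genes per direction were named from each other list. The rule was followed in part, and some of these members, such as Mcoln1 and Ctsl, are given by log2 fold change without each library. Members outside this rule were chosen after their values were seen. Promoter windows are from RefSeq and gene positions from GENCODE M21, both on GRCm38. Samples were grouped by their source names.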

Additional observations from a re-analysis of the deposited data

Results flagged for a closer look

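A library far from the others of its group, by Dixon's criterion at the 95% level, was found in 57 of 350 tests of a member in a group of 4 to 6 samples, 53 times as the highest library and 4 times as the lowest. Chance alone flags about 1 test in 20, and tests of different members in the same libraries are not independent.

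ATRA replicate 6 at 24 h was the highest of its 6 libraries for 20 members, given here with its normalised reads. Among the structural proteins Lamp1 (8904) and Lamp2 (3332) stood out. The proteases Ctsa (1354), Ctsb (3466), Ctsd (4350), Ctsl (3960) and Ctsh (1455) stood out. Of the glycosidases this held for Neu1 (950), Man2b1 (917) and Fuca1 (433). Lipid handling genes with this pattern were Psap (8167), Npc2 (2623) and Asah1 (2919). V-ATPase subunits with it were Atp6v0d1 (1137) and Atp6ap1 (2305). Outside these classes it held for Mcoln1 (864) and Grn (3135). Autophagy members with it were Sqstm1 (4070), Gabarapl1 (381) and Map1lc3b (2154).

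ATRA replicate 1 at 72 h was the highest of its 5 libraries for 24 members. Among the structural proteins Lamp2 (3584) stood out. The proteases Ctsa (1319), Ctsb (3398), Ctsd (4208) and Tpp1 (1410) stood out. Of the glycosidases this held for Glb1 (542), Gaa (772), Galns (250), Hexa (917), Naglu (271), Neu1 (862), Man2b1 (909) and Fuca1 (374). Lipid handling genes with this pattern were Psap (8355), Npc1 (529), Npc2 (2508), Lipa (577) and Asah1 (3086). V-ATPase subunits with it were Atp6v0d1 (1151) and Atp6ap1 (2378). Outside these classes it held for Mcoln1 (847) and Grn (3091). Autophagy members with it were Sqstm1 (3784) and Map1lc3b (2166).

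In the first cell experiment DMSO replicate 4 was highest for Ctsd (23376), Hexa (2669), Atp6v0d1 (2398) and Map1lc3b (6247) in the trametinib table. Combination replicate 1 was highest for Atp6v0d1 (4883) and replicate 3 for Man2b1 (4404). Combination replicate 3 was lowest for Cln3 (1669) and replicate 5 for Atp6v1a (10350). Rosiglitazone replicate 3 was highest for Ctsl (17130), and trametinib replicate 1 lowest for Psap (37801). In the second cell experiment combination replicate 1 at 24 h was highest for Lamp1 (10215) and replicate 4 for Gla (288), and replicate 3 at 72 h was lowest for Ctsa (1815).

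The combination's effect differed between 72 h and 24 h in the second cell experiment for 22 members by the test of the difference itself, given as the log2 fold change at 72 h minus that at 24 h. The calls of Ctsa, Ctsl, Ctsz, Npc2, Gabarapl1 and Map1lc3b were lost in 2 to 12 of 14 cases as single libraries were left out. The difference was 0.58 for Lamp1 and 0.92 for Lamp2 among structural proteins. Among the proteases it was 0.47 for Ctsa, 0.90 for Ctsb, 1.06 for Ctsd, 0.38 for Ctsl, 0.41 for Ctsz, 1.39 for Ctsh and 0.70 for Tpp1. For glycosidases it came to 1.21 for Galns, 0.95 for Hexa, 0.95 for Naglu, 0.72 for Man2b1 and 0.93 for Fuca1. Lipid handling genes had 1.01 for Psap, 0.51 for Npc2 and 0.45 for Asah1. V-ATPase members had 0.97 for Atp6ap1. Outside these classes it was 0.47 for Mcoln1 and 0.78 for Grn. Autophagy members gave 0.56 for Gabarapl1 and 0.58 for Map1lc3b.

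At 72 h the effect differed between the second and the first cell experiment for 31 members by the same kind of test, given as second minus first on the log2 scale. The difference was 0.32 for Lamp1 and 0.75 for Lamp2 among structural proteins. Among the proteases it was 0.23 for Ctsa, 0.60 for Ctsb, 0.45 for Ctsd, 0.20 for Ctsl, 0.54 for Ctsh and 0.36 for Tpp1. For glycosidases it came to 0.87 for Glb1, 0.28 for Gaa, 1.33 for Galns, 0.55 for Hexa, 0.94 for Naglu, 0.85 for Neu1, 0.68 for Man2b1 and 1.21 for Fuca1. Lipid handling genes had 0.51 for Psap, 0.64 for Npc1, 0.53 for Npc2, -0.23 for Lipa and 0.35 for Asah1. V-ATPase members had 0.43 for Atp6v0d1, 0.31 for Atp6v1h and 0.69 for Atp6ap1. Outside these classes it was 0.43 for Mcoln1, -0.41 for Cln3 and 0.59 for Grn. A transcription factor gave 0.48 for Tfe3. Autophagy members gave 0.79 for Sqstm1, 1.12 for Gabarapl1 and 0.95 for Map1lc3b.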

How the results depend on the processing

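No paired analysis was possible because the labels carry no replicate numbers shared between groups. No result on a member changed direction with a call under any alternative, and pseudocounts of 0.5 and 4 kept each count of called members within 1.5 times. After quantile normalisation 9 members were called in tumours at 1 month under the combination (7 lower, 2 higher), 3 between the DMSO times and 1 for the interaction. Without a filter on low values ATRA at 72 h gave 5 calls, the DMSO times 3 and the interaction 0. With only the compared groups in the fit, combination tumours against bladders without BBN gave 2 calls, ATRA at 72 h gave 2 and the DMSO times gave 12. edgeR on recovered reads called 29 members for the combination at 24 h, 32 at 72 h, 14 for ATRA at 24 h, 8 at 72 h, 5 between the DMSO times, 34 for the combination against ATRA and 20 for the change of the effect with time. With each library left out in turn the called members numbered 9 to 16 for the combination against vehicle at 1 month, 7 to 12 at 5 days, 0 to 1 for the difference of these effects, 8 to 17 for vehicle tumours against bladders without BBN and 0 to 1 for combination tumours against them. In the first cell experiment they numbered 31 to 33 under trametinib, 31 to 33 under the combination, 0 to 0 under rosiglitazone, 3 to 6 for the combination against trametinib and 0 to 4 for the interaction. In the second they numbered 26 to 29 at 24 h and 32 to 32 at 72 h under the combination, 16 to 22 for the change with time, 11 to 16 and 4 to 10 under ATRA at 24 h and 72 h, 32 to 34 for the combination against ATRA, 2 to 4 between the DMSO times and 30 to 32 for second minus first experiment. Where a fit left 2 libraries in a group, the spread was taken over all groups. The cause of these changes was not tested. Quantile normalisation moved the median of all genes by -0.129 for vehicle tumours against bladders without BBN and by 0.106 for the combination at 5 days. Depth was lowest in the second cell experiment, and how far it limits the calls there was not tested.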
